A study of Mus musculus with 4 samples.

Results

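The genes described here mark the cells of brain blood vessels: endothelial cells, which form the blood-brain barrier, and the pericytes and smooth muscle cells (mural cells) around them. They were taken by symbol from the deposited read counts, and all 46 were among the 22609 genes listed. RNA came from the hippocampus of C57BL/6 mice of 2 genotypes, named FLOXED and PELP1 FBKO, and each genotype had 2 libraries. PELP1 FBKO mice are forebrain knockouts of Pelp1, which encodes a co-regulator of the estrogen receptor. The sources used here do not give the driver of the recombination, the cells in which it took place, the age of the animals, or whether a library held 1 animal or a pool. Every animal of both genotypes had been ovariectomized, carried an estradiol (E2) mini pump, underwent global cerebral ischemia (GCI, in which blood supply to the whole brain is interrupted and then restored) and was killed after 24 h of reperfusion. No library came from animals without ischemia or without estradiol, so baseline differences between the genotypes and differences in their response cannot be told apart.

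Brain endothelial cells are sealed to each other by tight junctions and carry transporters that feed the brain or pump foreign compounds back into the blood. Their VEGF and Tie receptors receive growth and maintenance signals, and the PDGF-B they release recruits pericytes through PDGF receptor beta. After ischemia, inflamed endothelium can display selectins and other adhesion molecules that catch leukocytes, and the barrier can open. The comparison addresses which of these transcripts had unequal levels in the 2 genotypes at this time after ischemia.

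The 7 sequences that follow are the 250 bases before the gene start (for Ocln the first of 2 listed starts) of the 6 members with the smallest unadjusted p-values between the genotypes, all on the higher side in PELP1 FBKO, and of Emcn, an endothelial gene whose libraries were nearly level. They come from RefSeq on GRCm38.p6, while the reads were placed on mm9 per the submitters' processing notes, so no position was joined to the counts. Each runs 5′ to 3′ on the strand of its gene. Capitals mark AGGAAG, a core sequence of the ETS transcription factors that act in endothelium, and GGGCGG, the GC box, each on either strand.
Pltp (chr2:164857709-164857958, minus strand): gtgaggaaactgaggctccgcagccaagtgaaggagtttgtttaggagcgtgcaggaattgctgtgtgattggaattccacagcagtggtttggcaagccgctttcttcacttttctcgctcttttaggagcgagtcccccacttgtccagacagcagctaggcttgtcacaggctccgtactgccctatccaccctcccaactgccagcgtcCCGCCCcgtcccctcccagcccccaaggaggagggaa
Slco1a4 (chr6:141856221-141856470, minus strand): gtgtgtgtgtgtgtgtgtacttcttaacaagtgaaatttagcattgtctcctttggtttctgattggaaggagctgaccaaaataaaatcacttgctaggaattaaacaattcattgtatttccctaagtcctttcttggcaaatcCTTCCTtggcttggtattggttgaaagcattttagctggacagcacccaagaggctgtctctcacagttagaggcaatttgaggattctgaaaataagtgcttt
Ocln (chr13:100552719-100552968, minus strand): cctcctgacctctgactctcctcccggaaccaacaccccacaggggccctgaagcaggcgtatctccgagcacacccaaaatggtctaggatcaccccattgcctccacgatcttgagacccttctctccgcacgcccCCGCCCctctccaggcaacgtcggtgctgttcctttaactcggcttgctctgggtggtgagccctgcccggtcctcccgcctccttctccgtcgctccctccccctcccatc
Anpep (chr7:79848211-79848460, minus strand): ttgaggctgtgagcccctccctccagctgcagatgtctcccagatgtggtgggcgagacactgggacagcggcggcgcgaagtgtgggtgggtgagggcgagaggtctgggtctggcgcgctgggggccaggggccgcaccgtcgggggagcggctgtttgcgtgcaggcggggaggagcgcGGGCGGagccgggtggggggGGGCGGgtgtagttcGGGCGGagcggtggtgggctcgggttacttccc
Itm2a (chrX:107403361-107403610, minus strand): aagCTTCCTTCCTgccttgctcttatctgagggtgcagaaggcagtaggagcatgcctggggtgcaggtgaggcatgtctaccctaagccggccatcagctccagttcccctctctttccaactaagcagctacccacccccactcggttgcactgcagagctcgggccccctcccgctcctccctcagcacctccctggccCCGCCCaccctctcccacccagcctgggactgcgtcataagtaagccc
Abcb1a (chr5:8566841-8567090, plus strand): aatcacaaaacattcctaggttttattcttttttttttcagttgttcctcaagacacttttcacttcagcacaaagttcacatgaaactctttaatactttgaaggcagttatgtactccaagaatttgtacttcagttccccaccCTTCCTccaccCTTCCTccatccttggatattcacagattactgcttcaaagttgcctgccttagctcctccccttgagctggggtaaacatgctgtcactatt
Emcn (chr3:137340828-137341077, plus strand): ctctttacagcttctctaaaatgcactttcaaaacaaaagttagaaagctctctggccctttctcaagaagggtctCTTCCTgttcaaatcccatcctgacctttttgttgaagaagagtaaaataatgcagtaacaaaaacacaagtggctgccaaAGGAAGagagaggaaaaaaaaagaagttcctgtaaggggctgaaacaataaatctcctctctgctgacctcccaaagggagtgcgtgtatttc
The ETS core stood before Slco1a4, Itm2a, Abcb1a and Emcn, and the GC box before Pltp, Ocln, Anpep and Itm2a. Over the 31 members in the promoter table, 14 held the ETS core (45.2%, against 29.2% of 27025 genes) and 14 held the GC box (45.2%, against 32.9%). A match of one motif is never a match of the other. Among tested members the median log2 fold change was 0.36 in the 12 with the ETS core and 0.38 in the 17 without it, and 0.37 in the 14 with the GC box and 0.39 in the 15 without it. A match is a string of letters in this window, and binding was not measured.

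Reads assigned to genes numbered between 17524594 and 22447658 per library, so 3 reads, taken as the floor, came to between 0.134 and 0.171 CPM (reads of a gene scaled to a common library size). Pelp1, the targeted gene, was checked first: the FLOXED libraries held 26.7 and 26.2 CPM and the knockouts 18.0 and 17.3 CPM (log2 fold change -0.59, SE 0.149, adjusted p = 0.130 by edgeR's quasi-likelihood test). FLOXED 1 differed from the other 3 libraries in the share of alignments that were not unique, 47.7% against 38.5% to 41.5%. Of the neuronal markers that a hippocampus should hold, Camk2a was at 3376 to 4607 CPM and Rbfox3 at 210 to 303 CPM. Nothing in the labels says that the 2 libraries of a genotype were separate animals, so p-values reflect only how far these libraries vary, and that variation may be technical. In whole tissue, fewer cells of a type and less RNA per cell cannot be told apart.

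By edgeR's quasi-likelihood test, 0 of the 44 members that passed the filter on low counts were past an adjusted p of 0.05, as were 0 of all 14978 genes tested (0% higher and 0% lower). The members nevertheless stood mostly on the higher side in PELP1 FBKO: 38 had a positive log2 fold change and 6 a negative one, against 50.0% positive among all tested genes. Their median was 0.34, a fold of the PELP1 FBKO level over the FLOXED level on the log2 scale, and the median of all tested genes was 0.00. At an unadjusted p under 0.05, 14 members were higher (31.8%, where the background was 10.1% of all genes) and 0 were lower (background 5.55%). Both PELP1 FBKO libraries lay above both FLOXED libraries in 23 members (52.3%, background 25.4%) and below them in 3 (6.82%, background 23.0%), and the genotypes overlapped in the remaining 18. At an adjusted p under 0.10, 4 members were higher (9.09%, background 1.56%): Pltp, Slco1a4, Ocln and Anpep. DESeq2 called 4 members higher (background 2.20%) and 0 lower (background 0.895%), and limma-voom called 0, with 15 members at an unadjusted p under 0.05. The shares of all genes given here (25.4% and 23.0% without overlap, 10.1% and 5.55% before adjustment) are also the background for the counts of each role and list that follow.

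The 4 libraries did not split evenly. The median member stood 0.31 below its own 4-library mean in FLOXED 1, on the log2 scale (-0.31), -0.03 in FLOXED 2, and above that mean in both PELP1 FBKO libraries, by 0.18 in the first and 0.22 in the second. The FLOXED libraries were thus farther from each other than FLOXED 2 was from either PELP1 FBKO library. Without FLOXED 1 the median log2 fold change of the members was 0.18, with 34 of 45 tested members positive, and without FLOXED 2 it was 0.47, with 36 of 44. Without PELP1 FBKO 1 or PELP1 FBKO 2 it was 0.35 and 0.34. Leaving out FLOXED 1 made the log2 fold change of 26 of 44 members over 1.5 times smaller or reversed it (8 reversed), and that of 2 members over 1.5 times larger. Leaving out FLOXED 2 did the former to 3 members and the latter to 21. The same counts were 4 and 8 for PELP1 FBKO 1, and 11 and 3 for PELP1 FBKO 2.

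**Figure D1:**
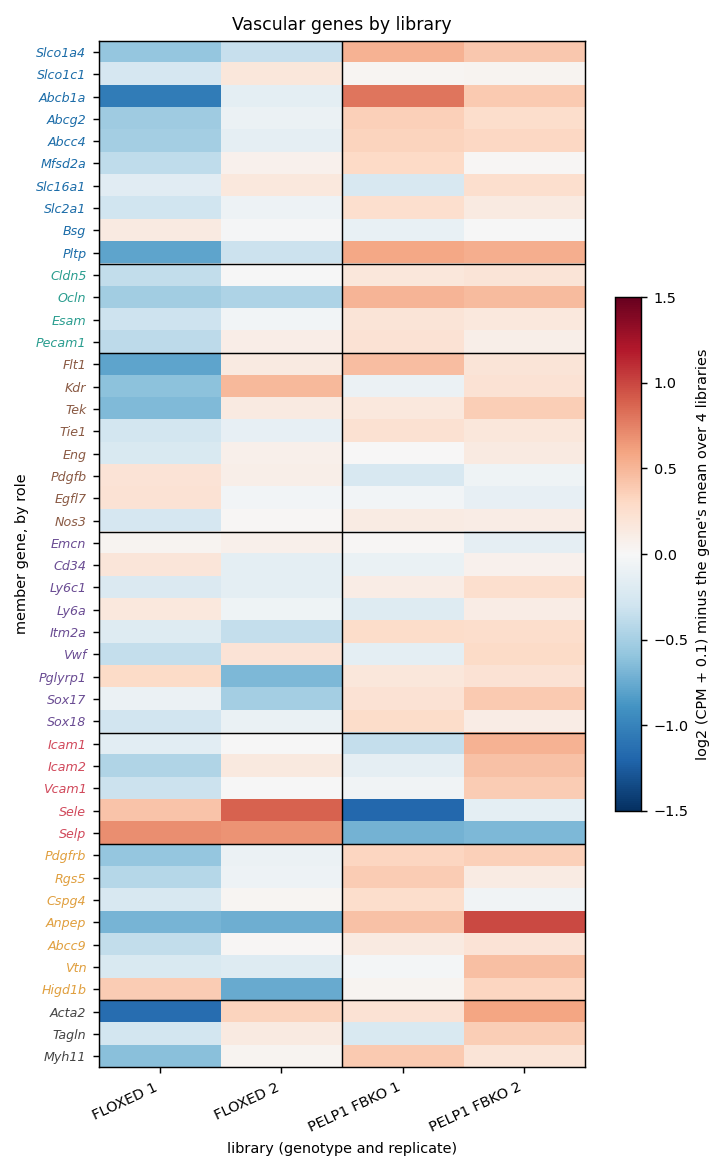
Each row is 1 of the 46 vascular genes, grouped by role, and each column a library; colour gives log2 (CPM + 0.1) minus the gene's mean over the 4 libraries. FLOXED 1 is the bluest column for most transporter, receptor and pericyte genes, while Sele and Selp run the other way.

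Of the 10 transporters and their partners, 6 were higher without overlap (background 25.4%) and 4 overlapped, with a median log2 fold change of 0.49. That median was 0.33 without FLOXED 1, with 7 of 10 positive, and 0.68 without FLOXED 2. Slco1a4, an organic anion transporter of brain endothelium, was at 26.4 and 31.3 CPM in the FLOXED libraries and at 57.1 and 52.5 CPM in the PELP1 FBKO libraries. Both PELP1 FBKO values were above both FLOXED values, and the log2 fold change was 0.93 (SE 0.147, edgeR adjusted p = 0.0628). Pltp, which encodes phospholipid transfer protein, was at 22.6 and 31.1 CPM against 58.4 and 57.0 CPM, again without overlap, with 1.10 (SE 0.174, adjusted p = 0.0628). Its span overlaps that of Ctsa in the RefSeq table, and the strand setting of the counting was not given, so its counts are uncertain.

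The drug efflux pumps, which use ATP to return compounds to the blood, all stood higher. Abcb1a, which encodes P-glycoprotein, was at 10.2 and 19.1 CPM in FLOXED against 37.2 and 27.8 CPM in PELP1 FBKO. The genotypes did not overlap, but the FLOXED libraries differed more from each other than FLOXED 2 did from the nearer PELP1 FBKO library, and the log2 fold change was 1.14 (SE 0.286, adjusted p = 0.127). Abcb1a has a related gene, Abcb1b, and its span overlaps Rundc3b, so its counts are uncertain. Abcc4 was at 9.70 and 12.6 against 17.4 and 17.1 CPM and Abcg2, the breast cancer resistance protein gene, at 11.3 and 15.4 against 20.9 and 19.5 CPM. Their log2 fold changes of 0.63 (SE 0.187) and 0.60 (SE 0.193) had adjusted p-values of 0.173 and 0.198.

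The nutrient carriers were closer to level. Slc2a1, the glucose transporter of the barrier, was at 91.2 and 107 CPM in FLOXED against 134 and 123 CPM in PELP1 FBKO, for a log2 difference of 0.38 (SE 0.137, adjusted p = 0.246) without overlap. Mfsd2a, the lipid carrier that restrains vesicle traffic in barrier endothelium, overlapped between the genotypes (24.7 and 33.7 against 39.7 and 32.5 CPM, 0.30). Slco1c1, a thyroid hormone transporter, had 0.06, and Slc16a1, the lactate carrier MCT1, had 0.02. Bsg, which encodes basigin, the chaperone of lactate carriers, was at 535 and 484 against 453 and 487 CPM (-0.12). In these last 3 genes the libraries of the genotypes overlapped, and each is also made by other brain cells. Per length, Bsg was the most abundant member at 321 RPKM (CPM per kilobase of transcript), followed by Vtn at 49.6 and Slc2a1 at 34.9 RPKM, while Abcc4 and Abcg2 were at 2.49 and 2.94 RPKM.

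**Figure D2:**
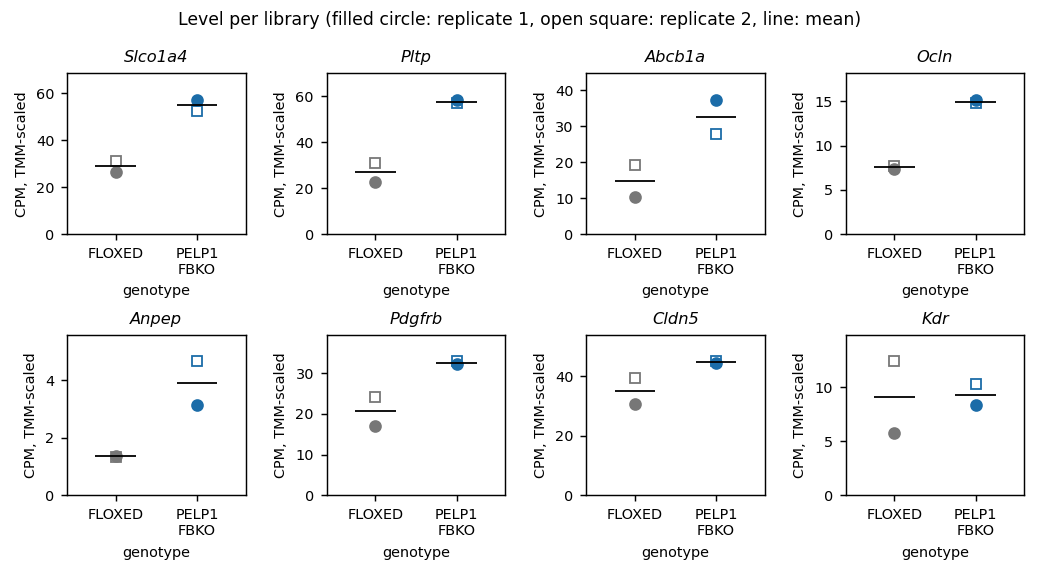
Level of 8 vascular genes in each library (CPM with TMM scaling, axes from 0), with replicate 1 as filled circles, replicate 2 as open squares and the genotype mean as a line. Slco1a4, Pltp and Ocln separate by genotype with a narrow spread inside PELP1 FBKO, whereas Kdr spans 5.76 to 12.4 CPM within FLOXED alone.

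Among junction genes Ocln stood out in size. Occludin, its product, is a membrane protein of the tight junction. Ocln was at 7.36 and 7.70 CPM in FLOXED against 15.1 and 14.8 CPM in PELP1 FBKO, so the libraries of a genotype were close and the genotypes lay apart, with a log2 fold change of 0.99 (SE 0.175, adjusted p = 0.0741). Cldn5, the claudin that seals the brain barrier, was at 30.6 and 39.4 against 44.6 and 45.0 CPM, with 0.35 (SE 0.159, adjusted p = 0.337), a value that was 0.18 without FLOXED 1 and 0.54 without FLOXED 2. Esam, an endothelial adhesion molecule, had 0.34 (SE 0.168) without overlap, and Pecam1 (CD31), found at endothelial contacts, overlapped at 18.0 and 25.3 against 27.5 and 25.1 CPM (0.28, and 0.06 without FLOXED 1). Per kilobase, Cldn5 was at 28.2 RPKM and Ocln at 2.78 RPKM. The 4 junction members had 4 positive and 0 negative log2 fold changes, 3 without overlap (background 25.4%), and a median of 0.35 that was 0.20 without FLOXED 1 and 0.54 without FLOXED 2.

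Of 12 other tight junction genes 11 were tested, 10 were positive and 1 negative, 7 were higher without overlap and 0 lower, and 0 passed the adjusted threshold. Their median was 0.34, and 0.14 without FLOXED 1. Jam2, a junctional adhesion molecule, was at 33.4 and 34.5 against 44.8 and 47.1 CPM (0.44, SE 0.133, adjusted p = 0.178).

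Growth factor and receptor genes were mixed, with a median of 0.18 over 8 members, 6 positive and 2 negative, and 0 at an unadjusted p under 0.05 in either direction. Without FLOXED 1 the median was 0.04, with 4 of 8 positive, and without FLOXED 2 it was 0.41. Flt1 (VEGF receptor 1) was at 17.7 and 34.0 CPM in FLOXED against 42.4 and 35.3 CPM in PELP1 FBKO. The FLOXED libraries differed more from each other than FLOXED 2 did from either PELP1 FBKO library, and the log2 fold change of 0.58 (SE 0.275, adjusted p = 0.359) was 1.12 without FLOXED 2 and 0.19 without FLOXED 1. Kdr (VEGF receptor 2) was at 5.76 and 12.4 against 8.34 and 10.3 CPM, so both PELP1 FBKO libraries lay between the FLOXED libraries (0.03, SE 0.334). Tek and Tie1, the angiopoietin receptor and its partner, were at 5.93 and 10.3 against 10.6 and 12.2 CPM (0.48, SE 0.269, and 0.14 without FLOXED 1) and at 6.33 and 7.06 against 8.98 and 8.62 CPM (0.39, SE 0.196). Eng, the TGF-beta co-receptor endoglin, had 0.14 and overlapped, and Nos3, endothelial nitric oxide synthase, had 0.22. The spans of Eng and Nos3, like those of Higd1b and Tagln, overlap another protein-coding gene, and their counts are uncertain in the same way as those of Pltp.

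The 2 secreted factors among them lay on the lower side. Pdgfb, the pericyte recruitment factor, was at 44.2 and 40.7 CPM in FLOXED against 32.5 and 36.6 CPM in PELP1 FBKO, and its log2 fold change was -0.30 (SE 0.142, adjusted p = 0.363). Egfl7, a matrix protein of endothelium, was at 44.1 and 37.0 against 36.9 and 35.0 CPM (-0.17, SE 0.147, adjusted p = 0.608). Neither overlapped between the genotypes, though Egfl7 was nearly equal in FLOXED 2 and PELP1 FBKO 1. Pdgfb is also made by neurons.

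The ligands of these receptors were on a separate list of 22 genes of VEGF, angiopoietin and Notch signalling, of which 20 were tested. There 11 were positive and 9 negative, 0 passed the adjusted threshold, 4 were higher and 2 lower with p under 0.05 before adjustment, and the median was 0.05. With 1 library left out it was between 0.02 and 0.18, over the 21 or 22 genes that then passed the filter. Vegfa, the main ligand of Flt1 and Kdr, was at 68.9 and 73.5 CPM in FLOXED against 47.6 and 46.3 CPM in PELP1 FBKO, without overlap (-0.60, SE 0.126, adjusted p = 0.0934). Angpt2, the angiopoietin that endothelium releases on activation, was at 4.50 and 5.86 against 1.59 and 2.65 CPM (-1.30, SE 0.324, adjusted p = 0.127). Angpt1, the Tek ligand that mural cells make, is named here after its value was seen, and was at 7.24 and 9.37 against 12.3 and 15.6 CPM (0.74, SE 0.215, adjusted p = 0.163). The 2 angiopoietins thus lay on opposite sides, each without overlap between the genotypes.

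Genes of endothelial identity had a median of 0.33 over 9 members, 6 positive and 3 negative, 4 higher without overlap (background 25.4%), 1 lower without overlap (background 23.0%) and 4 overlapping. Itm2a, a membrane protein gene of endothelium, was at 41.1 and 36.6 CPM in FLOXED against 57.0 and 56.6 CPM in PELP1 FBKO, and its log2 fold change was 0.55 (SE 0.134, adjusted p = 0.122). Ly6c1, an endothelial surface antigen, was at 21.2 and 22.1 against 26.5 and 29.3 CPM (0.37, SE 0.149, adjusted p = 0.293), and reads of the Ly6 family may be split between near-identical copies. Sox17, a transcription factor gene of arterial endothelium, was at 4.05 and 2.999 against 5.03 and 5.68 CPM (0.61, SE 0.258, adjusted p = 0.311), and its relative Sox18 had 0.39 (SE 0.214). Cd34, at 56.6 and 45.3 against 46.6 and 52.2 CPM, overlapped and had -0.04 (SE 0.155). The rest were near level or variable: Ly6a had -0.09, Emcn (endomucin) -0.12, Vwf (von Willebrand factor) 0.13 and Pglyrp1 0.33, and Emcn kept between 4.46 and 5.17 CPM in the 4 libraries.

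Of 32 other endothelial genes 31 were tested, 22 positive and 9 negative, with a median of 0.41 (0.27 without FLOXED 1), and 0 passed the adjusted threshold. An unadjusted p under 0.05 was reached by 8 higher and 3 lower genes. Gpr116, an adhesion receptor gene of endothelium, was at 16.6 and 23.8 CPM in FLOXED against 44.7 and 34.7 CPM in PELP1 FBKO (0.97, SE 0.212, adjusted p = 0.0986), and Klf2, a flow-responsive transcription factor gene, was at 4.50 and 5.35 against 8.89 and 9.16 CPM (0.87, SE 0.209, adjusted p = 0.117). Among 17 genes of the Wnt signalling that builds the barrier 12 were positive and 5 negative, with a median of 0.36 (0.14 without FLOXED 1), 6 higher and 1 lower with p under 0.05 before adjustment, and 0 past the adjusted threshold. Apcdd1, a Wnt inhibitor gene induced in barrier endothelium, was at 23.8 and 25.7 against 37.7 and 38.6 CPM (0.62, SE 0.141, adjusted p = 0.104), and Reck, part of the Wnt7 receptor complex, at 6.96 and 6.92 against 11.5 and 10.4 CPM (0.66, SE 0.187, adjusted p = 0.160).

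Leukocyte adhesion genes were low in every library except Vcam1, and their 3 tested members overlapped between the genotypes. Vcam1, which binds leukocyte integrins and is also made by astrocytes, was at 28.3 and 35.4 CPM in FLOXED against 34.1 and 46.2 CPM in PELP1 FBKO (0.33, SE 0.190, adjusted p = 0.445). Icam1, induced by cytokines, was at 6.73 and 7.52 against 5.85 and 10.8 CPM (0.22, SE 0.296), and Icam2, which endothelium makes without induction, at 2.05 and 3.14 against 2.58 and 3.87 CPM (0.30, SE 0.338). In all 3 genes PELP1 FBKO 2 was the highest library. Their median was 0.30, and 0.55 with PELP1 FBKO 1 left out. With FLOXED 1 or PELP1 FBKO 2 left out, a selectin gene with few reads also passed the filter. The median of those 4 genes was 0.09 without FLOXED 1 and -0.15 without PELP1 FBKO 2, where 1 of 4 was positive. Without PELP1 FBKO 2, Vcam1 had 0.10, Icam2 -0.01 and Icam1 -0.28.

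The selectin genes, which encode the first tethers of leukocytes on inflamed endothelium, were under the filter on low counts in the main fit and were not tested there. Sele (E-selectin) had 6 and 11 reads in the FLOXED libraries and 1 and 4 in the PELP1 FBKO libraries, and Selp (P-selectin) had 5 and 6 against 1 and 1. Scaled to total reads, the PELP1 FBKO level was 0.274 of the FLOXED level for Sele (95% exact interval 0.0791 to 0.774) and 0.169 for Selp (0.0182 to 0.776). These intervals cover counting error only, and not the spread between libraries. Both selectins thus ran opposite to most members, on a handful of reads.

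Cytokine and endothelial activation genes were on the lower side as well, with 15 of 19 tested genes negative and 4 positive, and a median of -0.77. With p under 0.05 before adjustment, 10 were lower and 0 higher, and 0 were past the adjusted threshold. The median was -0.47 when FLOXED 1 was left out, -0.49 when PELP1 FBKO 1 was, and -1.35 when PELP1 FBKO 2 was. In those fits 20 or 21 genes passed the filter, so the sets of genes differ. Ccl2, a chemokine gene that draws monocytes, was at 10.1 and 14.6 CPM in FLOXED against 0.181 and 2.01 CPM in PELP1 FBKO (-3.52, SE 0.655, adjusted p = 0.0766), and Cxcl10 was at 41.4 and 65.7 against 0.725 and 11.9 CPM (-3.10, SE 0.814, adjusted p = 0.140). In both, PELP1 FBKO 1 was far below PELP1 FBKO 2, and without PELP1 FBKO 2 the log2 fold changes were -6.05 and -6.19. Of 7 neutrophil markers, S100a9 alone passed the filter, at 0.97 and 0.83 against 0.77 and 0.49 CPM, lower without overlap (-0.50, SE 0.452, adjusted p = 0.635). The defining marker S100a8 was between 0 and 0.539 CPM, and the summed level of the list was 1.77 and 1.52 against 0.861 and 1.52 CPM.

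Of 6 red blood cell genes, Alas2, a heme synthesis enzyme gene of red cell precursors, alone passed the filter. It was at 2.97 and 4.48 CPM in FLOXED against 8.07 and 8.03 CPM in PELP1 FBKO, higher without overlap (1.10, SE 0.255, adjusted p = 0.109). The globin genes Hba-a1, Hba-a2, Hbb-b1 and Hbb-b2 had no read in any of the 4 libraries, a count of 0 that leaves room for 0.171 CPM in the shallowest one, although reads with several alignments were not counted. The part of blood cells in the vascular values was not tested.

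All 7 pericyte members were on the higher side, 5 without overlap (background 25.4%), with a median of 0.44. Anpep, the aminopeptidase CD13 of pericytes, was at 1.37 and 1.34 CPM in FLOXED against 3.13 and 4.65 CPM in PELP1 FBKO, from 24, 29, 69 and 95 reads. This was the largest log2 fold change of the tested members, 1.52 (SE 0.327, adjusted p = 0.0983), at a low level. Pdgfrb, the receptor for PDGF-B, was at 17.1 and 24.2 against 32.2 and 32.9 CPM (0.65, SE 0.189, adjusted p = 0.163). Rgs5, a regulator of G protein signalling, was at 14.1 and 18.0 against 24.8 and 20.9 CPM (0.50, SE 0.186, adjusted p = 0.251). Vtn, the vitronectin gene, was the most abundant pericyte member at 72.5 and 74.3 against 83.5 and 116 CPM (0.44, SE 0.170, adjusted p = 0.268), with the 2 PELP1 FBKO libraries farther apart than PELP1 FBKO 1 was from FLOXED. Abcc9, a potassium channel subunit gene, had 0.33 and did not overlap, while Cspg4 (NG2, shared with oligodendrocyte precursors) had 0.22 and Higd1b 0.29, both with overlap.

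The 3 smooth muscle genes encode parts of the contractile apparatus of arteriole walls, and only 1 of them did not overlap between the genotypes. Acta2, smooth muscle actin, was at 5.19 CPM in FLOXED 1, while FLOXED 2 and both PELP1 FBKO libraries held 14.6, 13.5 and 17.4 CPM. Its log2 fold change of 0.63 (SE 0.403, adjusted p = 0.493) therefore rested on FLOXED 1, and was 0.08 without that library. Myh11, smooth muscle myosin, was at 5.76 and 9.23 against 11.8 and 10.3 CPM (0.55, SE 0.251, adjusted p = 0.341, and 0.26 without FLOXED 1), and Tagln (SM22) overlapped at 6.27 and 8.40 against 6.48 and 9.85 CPM (0.15, SE 0.265). The median of the 3 was 0.55, and 0.08 without FLOXED 1.

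Of 25 other mural cell genes 24 were tested, 21 positive and 3 negative, with a median of 0.49 (0.32 without PELP1 FBKO 2, with 15 of 24 positive), 9 higher and 0 lower with p under 0.05 before adjustment, and 0 past the adjusted threshold. Ednra, the endothelin A receptor gene, was at 4.39 and 5.12 CPM in FLOXED against 9.52 and 9.06 CPM in PELP1 FBKO (0.96, SE 0.207, adjusted p = 0.0983), and Atp13a5, a pericyte gene, was at 6.44 and 8.54 against 15.4 and 12.3 CPM (0.88, SE 0.218, adjusted p = 0.125). The 14 genes of the vascular basement membrane, the sheet that endothelium and mural cells share, had a median of 0.29 (0.11 without FLOXED 1), 12 positive and 2 negative, with 4 higher and 0 lower with p under 0.05 before adjustment and 0 past the adjusted threshold. Lama2, a laminin chain gene of mural cells, astrocytes and fibroblasts, was at 7.13 and 7.93 against 16.8 and 19.1 CPM (1.25, SE 0.180, adjusted p = 0.0566), and Lama5 at 6.84 and 8.58 against 14.6 and 12.7 CPM (0.82, SE 0.200, adjusted p = 0.119). The collagen IV genes Col4a1 and Col4a2, named after their values were seen, had 0.02 and -0.13.

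**Figure D3:**
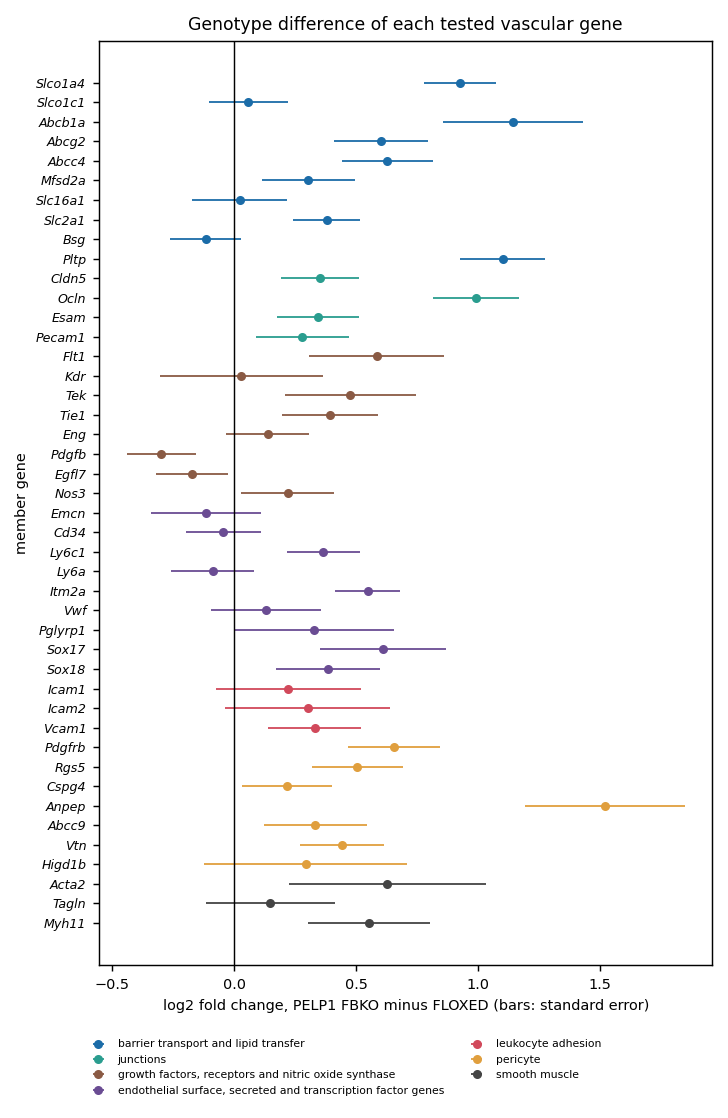
Log2 fold change (PELP1 FBKO minus FLOXED) of the 44 tested vascular genes, coloured by role, with standard errors from edgeR's quasi-likelihood fit. Anpep (1.52), Abcb1a (1.14), Pltp (1.10), Ocln (0.99) and Slco1a4 (0.93) lie farthest to the right, and Pdgfb (-0.30) lies farthest to the left.

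Markers of other cells differed beside these genes. Astrocyte markers had 10 positive log2 fold changes of 10, 7 without overlap (background 25.4%), with a median of 0.56 and a summed level of 6113 and 6977 CPM in FLOXED against 7934 and 9799 CPM in PELP1 FBKO. Gja1, the gap junction protein gene of astrocytes, was at 137 and 171 against 338 and 338 CPM (1.13, SE 0.153, adjusted p = 0.0501), and its partner Gjb6 at 56.6 and 57.8 against 87.0 and 97.6 CPM (0.69, SE 0.129, adjusted p = 0.0768). The defining markers Aqp4 and Aldh1l1 overlapped at 0.11 and 0.12, and without PELP1 FBKO 2 the list had 7 of 10 positive. All 10 oligodendrocyte markers were positive, 9 of them without overlap, with a median of 0.84 and sums of 2954 and 3769 against 5870 and 6315 CPM. Oligodendrocyte precursor markers had 5 of 7 positive, 3 without overlap, and sums of 283 and 316 against 370 and 375 CPM. Their median was 0.27, and 0.08 without FLOXED 1, with Sox10 at 38.6 and 43.5 against 60.2 and 58.9 CPM (0.54) and the defining marker Pdgfra overlapping (0.27). Of 10 neuron markers 6 were positive and 4 negative, with sums of 10040 and 10520 against 12090 and 9606 CPM and a median of 0.09 that was -0.12 without PELP1 FBKO 1. With p under 0.05 before adjustment, 3 were higher and 0 lower. Prox1 had 0.93 (SE 0.196, edgeR adjusted p = 0.0935) and Gad2 0.64 (SE 0.149, adjusted p = 0.113), both without overlap. The defining markers Rbfox3, Snap25 and Camk2a had -0.30, 0.09 and 0.09. The summed level of the 46 vascular members was 1443 and 1551 CPM in FLOXED and 1674 and 1769 CPM in PELP1 FBKO.

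The medians of lists of other cells, several of them found along vessels, moved with single libraries. Some of their genes, picked for the smallest p in these same libraries, stayed on the higher side. Of 11 microglia markers 11 were on the higher side and 5 did not overlap, with a median of 0.30 and sums of 751 and 662 against 784 and 1100 CPM. Without PELP1 FBKO 2 that median was 0.09, with 7 of 11 positive, and without PELP1 FBKO 1 it was 0.60. With 1 library left out, Csf1r ranged from 0.71 to 0.90 and Itgam from 0.80 to 1.32. The defining microglia markers P2ry12 and Tmem119 had 0.42 to 0.74 and 0.02 to 0.18. Of 7 tested perivascular macrophage markers 5 were positive, with a median of 0.39 and overlapping sums of 21.3 and 23.5 against 16.5 and 27.3 CPM. Without PELP1 FBKO 2 their median was -0.30, with 3 of 8 positive as another gene passed the filter, and without PELP1 FBKO 1 it was 0.87. Fibroblast markers had a median of 0.50, 8 of 9 tested genes positive, and sums of 140 and 171 against 181 and 276 CPM, the last of them in PELP1 FBKO 2, the library in which Anpep and Vtn were also highest. Their median was 0.20 without PELP1 FBKO 2, over 9 genes, and 1.16 without FLOXED 2, over 10 genes. In the latter fit a gene with few reads also passed the filter, so these medians cover unlike sets of genes. With 1 library left out, Ogn ranged from 1.07 to 1.26 and Igf2 from 0.70 to 1.35. The defining fibroblast markers Lum and Col1a1, which overlapped between the genotypes, had 0.14 to 0.75 and -0.01 to 1.19. Of 7 tested choroid plexus markers 4 were positive and 3 negative, and the summed level of the list, 362 and 108 against 61.6 and 75.1 CPM, was mostly that of Ttr, at 324 CPM in FLOXED 1 and 67.5, 21.4 and 33.9 CPM in the other 3 libraries. The part of these cells in the vascular values was not tested.

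**Figure D4:**
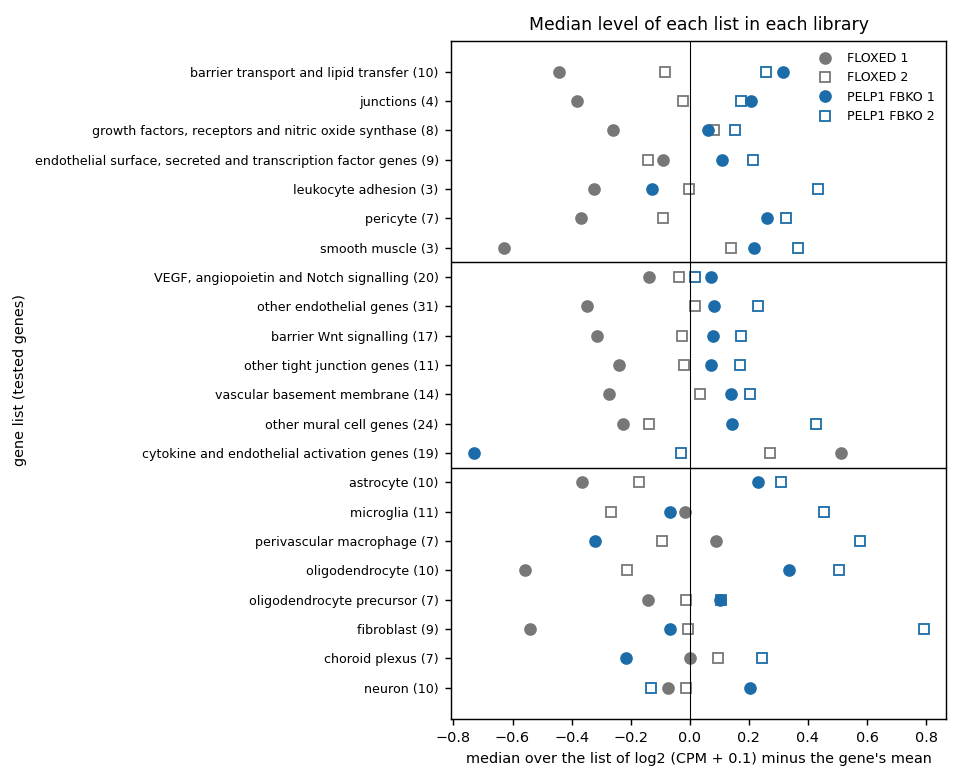
Median over each gene list of log2 (CPM + 0.1) minus the gene's 4-library mean, 1 symbol per library, with vascular roles at the top, related pathways in the middle and markers of other cell types at the bottom. FLOXED 1 (grey circle) is the lowest library for barrier transport (-0.44), pericyte (-0.37) and smooth muscle genes (-0.63), and the cytokine and endothelial activation list runs the other way.

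The difference between the 2 FLOXED libraries was larger for longer transcripts. Across the 44 tested members, the log2 difference of FLOXED 2 minus FLOXED 1 had a Pearson correlation of 0.517 with the log2 length of the longest transcript, as a description over genes that share the same libraries. Across 14819 tested genes with a length it was 0.434. Members longer than the median of 3341 bases stood 0.36 higher in FLOXED 2 than in FLOXED 1 (median, log2), and the shorter ones 0.11. Among all tested genes split at that length, the medians were 0.14 for the longer and -0.16 for the shorter. Between PELP1 FBKO 2 and PELP1 FBKO 1 the correlation was -0.255 over members and -0.208 over all tested genes.

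Between the genotypes the relation to length was weaker, with a correlation of 0.198 over the members and 0.169 over all tested genes. The median log2 fold change was 0.43 in the 22 longer members, 21 of them positive, and 0.32 in the 22 shorter ones, 17 of them positive. Among all tested genes split at the same length the medians were 0.05 and -0.08. With per-library offsets for length and GC content, added after seeing the data, the median of the members was 0.35, 37 of 44 were positive, and 4 were past the adjusted threshold, all on the higher side (9.09%, where the background was 1.51% of all genes higher and 0.722% lower): Slco1a4, Pltp, Ocln and Itm2a. At an unadjusted p under 0.05 that fit had 15 members higher and 1 lower, against 10.6% of all genes higher and 10.6% lower.

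**Figure D5:**
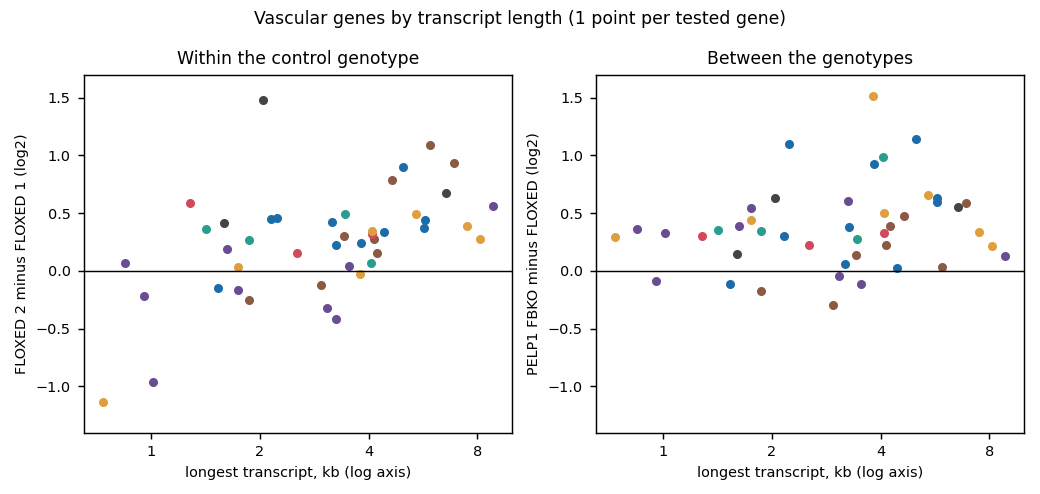
Each point is 1 of the 44 tested vascular genes against the length of its longest transcript (log axis), coloured by role as in the plot of fold changes, with the difference between the 2 FLOXED libraries on the left and between the genotypes on the right. Long transcripts such as those of Flt1, Kdr and Abcb1a lie high on the left, but the highest point there is the shorter Acta2 (2035 bases, 1.48). Most points lie above 0 on the right.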

How the data were processed

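RNA from 4 hippocampus libraries was sequenced as 50-base single reads, per the labels' protocols. The authors deposited, for every library, unscaled whole-number counts of reads for each gene. CASAVA 1.8.2, TopHat2 2.0.8b, HTSeq and the mm9 build are named in the submitters' processing notes, while the series text names a human build. For HTSeq, the sources used here give no version, annotation or strand setting. The HTSeq totals that name no gene were left out throughout: 14.7% to 15.7% of uniquely placed reads lay in no gene, and 38.5% to 47.7% of all alignments were not unique and not counted. Replicates of a genotype differed by more than sampling noise (chi-square per degree of freedom 23.3 in FLOXED and 17.4 in PELP1 FBKO), so each library was 1 sample.

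The main test was edgeR 4.0.16 (R 4.3.3) with TMM scaling, filterByExpr and the quasi-likelihood F test on genotype over all 14978 genes passing the filter, Benjamini-Hochberg adjusted, with a threshold of 0.05. Fold changes (log2) take FLOXED as the base, with standard errors from the F statistic. CPM are TMM-scaled, and RPKM divides them by the longest GENCODE vM21 transcript. An exact permutation test of 2 against 2 cannot go below p = 0.333 (two-sided), so none is given. Alternatives used DESeq2 1.42.0, limma-voom (limma 3.58.1), other scaling and filters, a replicate block and each library left out.

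Named genes were Pelp1, the members, and in each other list the 2 genes with the smallest p and the defining markers; genes outside this rule are said to be so. One gene that the rule names is not reported here. The members and lists were chosen with earlier results of these data known.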

Additional observations from a re-analysis of the deposited data

How the results depend on the processing

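The members' directions were stable in part. Over 14 alternatives, 32 of 44 tested members kept their direction in each alternative that gave a value, 28 higher and 4 lower in PELP1 FBKO, and 12 crossed 0 in at least 1. The edgeR quasi-likelihood test called 0 members and 0 of all genes (2341 at an unadjusted p under 0.05). All genes past the threshold numbered 17 with RLE size factors, 23 with total counts, 449 by DESeq2, 359 with every gene that had a read, 43 with at least 50 reads in every library, 24 by edgeR's newer quasi-likelihood method and 331 with length and GC offsets (224 higher and 107 lower), and 0 by limma-voom. Leaving out 1 library gave 0 to 598, and 0 came without FLOXED 1. Members past the threshold numbered 4 by DESeq2 (Abcb1a, Ocln, Pltp and Slco1a4), 5 with every gene that had a read (these and Anpep) and 4 with length and GC offsets. Leaving out 1 library gave 0 without FLOXED 1, and up to 7 without FLOXED 2 (Acta2, Flt1 and Pdgfrb joining the first 4). RLE, total counts, the stricter filter, the newer method and limma-voom gave 0. The adjusted p over the alternatives ranged from 0.000273 to 0.229 for Slco1a4, from 3.4e-05 to 0.215 for Pltp, from 0.00919 to 0.266 for Ocln, from 1.68e-05 to 0.344 for Abcb1a and from 0.00221 to 0.331 for Anpep.

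The deviations of same-numbered libraries from their genotype means had a correlation of -0.143 over genes. With 2 libraries per genotype this cannot tell whether the shared numbers mark a pairing, and the main test used none. With the replicate block, 566 of 14978 genes and 5 of 44 members were past the threshold. With the crossed pairing, 314 of 14978 genes and 4 of 44 members were. The median log2 fold change of the members lay between 0.18 and 0.47 when 1 library was left out.

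The members that crossed 0 had small or variable differences, with these ranges when 1 library was left out: Slco1c1 -0.14 to 0.28, Slc16a1 -0.25 to 0.23, Kdr -0.41 to 0.68, Eng -0.0039 to 0.29, Cd34 -0.21 to 0.12, Ly6a -0.25 to 0.0391, Vwf -0.12 to 0.43, Pglyrp1 -0.11 to 0.89, Icam1 -0.28 to 0.58, Icam2 -0.0148 to 0.64, Tagln -0.18 to 0.40 and Higd1b -0.22 to 0.99. With length and GC offsets Slc16a1 had -0.0472, the log2 fold change of Kdr was -0.0699, and Ly6a had 0.0219 and the neuron marker Camk2a -0.007. Among the other-cell markers the naming rule selects, those that crossed 0 when 1 library was left out were Aldh1l1 (-0.1192 to 0.3062), Aqp4 (-0.2682 to 0.4556), Col1a1 (-0.0126 to 1.1928), Folr1 (-0.3749 to 1.3616), Snap25 (-0.0716 to 0.229) and Camk2a (-0.1691 to 0.3). The cause was not tested. Genes with few reads, such as Sele, Selp and Anpep, are limited by depth.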
